A study of Mus musculus with 12 samples.

Results

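Messenger RNA levels of 10 genes were followed across 12 mouse hippocampus libraries: the plakins Dst and Macf1, the nesprins Syne1 and Syne2, the ankyrins Ank2 and Ank3, the spectrins Sptbn1 and Sptan1, and 2 further genes, Zbed6 and Lnpep. The members were taken by symbol from 23352 gene entries. Dst, Zbed6 and Lnpep were chosen for their large rise from 3 to 12 months, so their age differences are given as a description with no test. The values of both ages took part in that choice, so genotype tests of these 3 are not independent of it. The other 7 were chosen by family, but with earlier results of these data known, so their tests are not fully independent of the data either.

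The libraries formed 4 groups of 3 C57BL/6J mice: non-transgenic littermates (wild type) at 3 and at 12 months, and mice of the Tg396 line at the same ages. Tg396 mice express N40K, a shortened form of the splicing protein U1-70K (gene Snrnp70), in neurons from a modified CaMKIIa promoter, alongside their own Snrnp70. They represent 1 transgenic line. The levels are FPKM, which count fragments relative to transcript length in kilobases and to the M (mega) of mapped reads, and groups were compared with limma on log2(FPKM + 1). In this report "called" means a limma adjusted p below 0.05 over the 13945 genes tested.

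Proteins of these families join the cell's filaments to its membranes. Plakins crosslink actin, microtubules and intermediate filaments. Nesprins span the outer nuclear membrane and hold SUN proteins on the inside of the nuclear envelope. Spectrin tetramers and the ankyrins bound to them form the lattice under the plasma membrane of axons and anchor sodium channels at the axon initial segment. Zbed6 and Lnpep are not linkers. Zbed6 is a transcription factor derived from a DNA transposon, known as a repressor of Igf2, and lies within the gene Zc3h11a. Lnpep encodes insulin-regulated aminopeptidase, a membrane peptidase of Glut4 storage vesicles that cleaves oxytocin and vasopressin.

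The members have long transcripts. In the GENCODE M21 annotation the longest transcript of Syne1 has 27908 bases in 146 exons, that of Macf1 23495 bases, that of Dst 23279 bases in 98 exons and that of Syne2 21704 bases. Ank2 has 14305, Lnpep 12052, Ank3 9963, Sptbn1 9107, Sptan1 8018 and Zbed6 5007 bases, against a median of 3342 over the tested genes with a length. Of the 153 tested genes with at least 12000 bases, 6 were members. The members reach such lengths in unlike ways. Coding sequence makes up most of Dst, where only 4.6% of the longest transcript is noncoding, and of Syne1 (5.4%), while 74.5% of Lnpep is noncoding. Zbed6 is a single exon with 41.3% noncoding bases, and its exon overlaps annotated transcripts of Zc3h11a, so reads of these 2 genes may not be separable. Short annotated genes also overlap exons of Dst, Syne2, Ank2 and Sptbn1. Levels of these members are uncertain to the extent that the authors' counting, which is not given in the sources used here, could assign shared reads either way.

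RefSeq (build GRCm38.p6) gives promoter windows for 9 of the 10 members. The 2 windows of Dst, the member with the largest rise with age in wild type, are shown because its starts have unlike sequence. Each covers the 250 bases before an annotated start, 5′ to 3′ on the plus strand, with capitals marking a GC box (GGGCGG) or a CCAAT box (CCAAT) found by a search of both strands.
Dst start 1, chr1:34011345-34011594: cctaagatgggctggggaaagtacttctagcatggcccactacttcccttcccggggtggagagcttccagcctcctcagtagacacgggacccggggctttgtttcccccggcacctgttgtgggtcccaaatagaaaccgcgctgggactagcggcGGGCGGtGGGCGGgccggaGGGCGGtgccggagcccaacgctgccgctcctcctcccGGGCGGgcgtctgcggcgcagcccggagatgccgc
Dst start 2, chr1:34160010-34160259: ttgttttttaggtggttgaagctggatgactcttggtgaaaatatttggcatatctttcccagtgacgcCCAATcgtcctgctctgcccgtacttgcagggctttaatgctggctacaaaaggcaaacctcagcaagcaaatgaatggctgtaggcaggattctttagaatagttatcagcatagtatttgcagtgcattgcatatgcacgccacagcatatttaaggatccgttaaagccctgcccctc
The first window is 68.8% GC with 4 GC boxes, and the second is 45.2% GC with 1 CCAAT box and no GC box, against a median of 52.4% GC over 32851 promoters. A GC box was present in 32.7% and a CCAAT box in 33.8% of those promoters. The windows of Lnpep (70.0% GC, 4 GC boxes) and Zbed6 (69.6% GC, 1 GC box) were also GC-rich. The FPKM values are per gene and do not say which Dst start was used.

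Sequencing depth, estimated from the spacing of the lowest FPKM values, was about 39.9 to 97.1 M reads per library, and any pair of libraries in a group correlated at 0.988 to 0.997. Libraries are taken as separate mice, and nothing in the labels states this, so p-values measure only the spread between these samples. The libraries of the ages carry separate number series in their names, so age and library series cannot be told apart. Xist, expressed from the inactive X chromosome of females, stood at 13.5 to 17.3 FPKM in 3 libraries (3-month wild type replicates 2 and 3, 3-month N40K replicate 3) and at no more than 0.112 FPKM in the other 9, so the sexes were unbalanced between groups. Hippocampal neuron markers were present, with 12 of 12 tested. In bulk tissue, fewer cells of a type and less RNA per cell cannot be told apart.

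Levels of the 10 genes spanned a wide range. In 3-month wild type, Sptan1, alpha-II spectrin, was highest at 146.4 ± 2.63 FPKM (mean ± SD, n = 3 here and below). Ank2 followed at 71.3 ± 2.92, Sptbn1 at 56.2 ± 4.57, Syne1 at 29.8 ± 0.555, Ank3 at 21.8 ± 0.195 and Macf1 at 12.6 ± 0.508 FPKM, each apart from its neighbours in that order. Below them the ranges of Syne2 (1.42 ± 0.258) and Lnpep (1.06 ± 0.387) overlapped, as did those of Lnpep and Zbed6 (0.955 ± 0.378). Dst was lowest and apart, at 0.232 ± 0.00990 FPKM. At 12 months the order changed in both genotypes. Sptbn1 stood above Ank2, and Syne2 took the last place at 1.69 ± 0.205 FPKM in wild type and 1.76 ± 0.271 in N40K. In 12-month wild type the ranges of Lnpep and Zbed6, of Zbed6 and Dst, of Ank3 and Syne1, and of Syne1 and Macf1 overlapped. In 12-month N40K every neighbouring pair was apart.

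**Figure D1:**
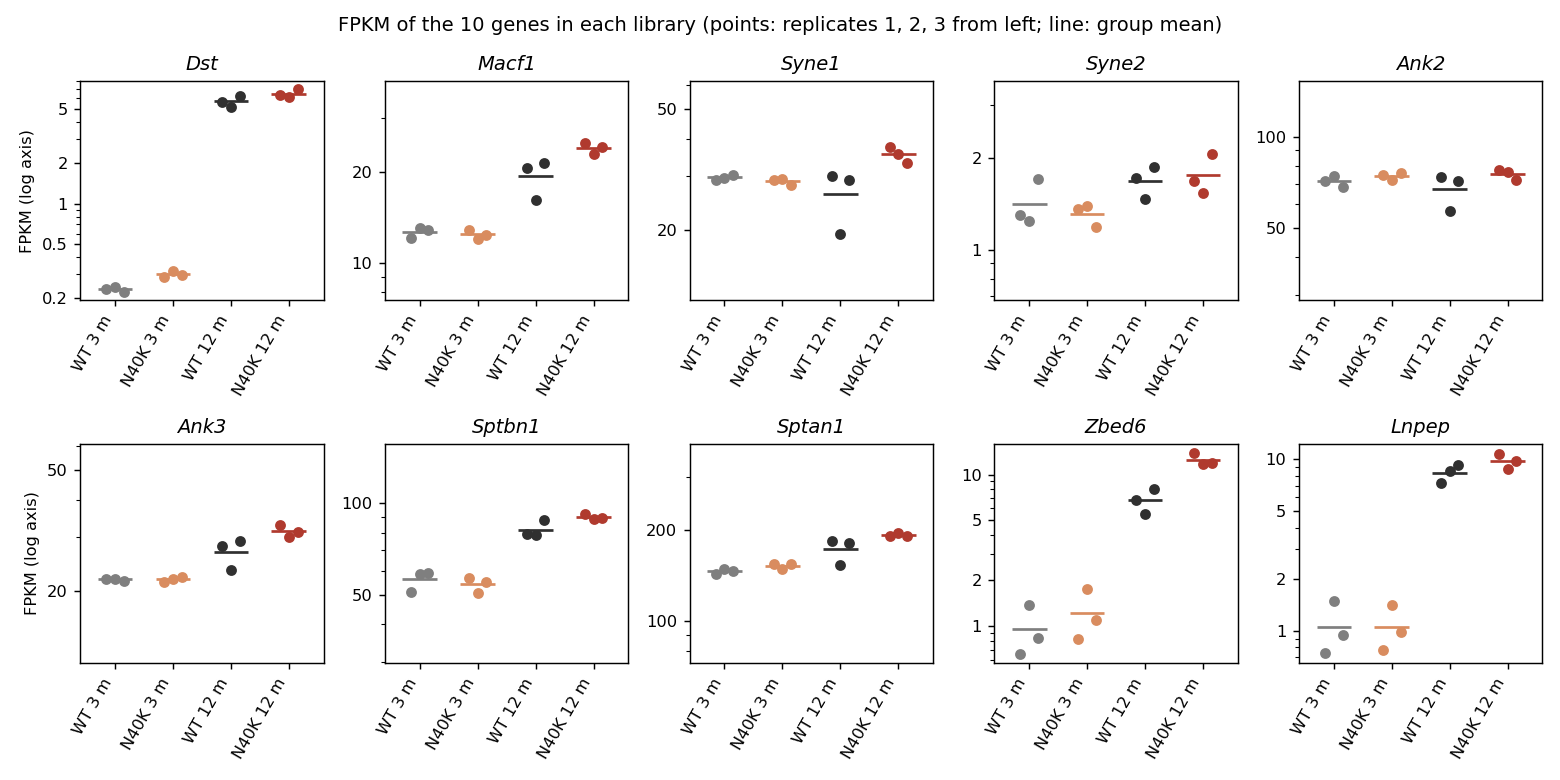
FPKM (log axis) of each of the 10 genes in the 12 libraries, by group; points are replicates 1, 2 and 3 from left and lines are group means. Dst, Zbed6 and Lnpep stand far higher at 12 months, and replicate 2 of the 12-month wild type is the lowest of its group for 9 of the 10 genes.

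The first question was what neuronal N40K does to these genes in young adults. At 3 months 0 of the 10 members were called, where 11.4% of all genes tested were called in either direction (1109 higher and 487 lower, or 721 and 646 after median-ratio scaling between libraries). The count was also 0 at an unadjusted limma p under 0.05, a threshold at which all genes were not counted. Their median log2 difference was 0.00, beside 0.02 for all genes. Macf1, which crosslinks actin and microtubules, measured 12.1, 13.0 and 12.9 FPKM in wild type and 12.8, 12.0 and 12.4 in N40K, and the groups overlapped. Dst, also called dystonin, was the exception in separation: it measured 0.233, 0.241 and 0.222 FPKM in wild type and 0.286, 0.315 and 0.296 in N40K, so that the groups did not overlap. Higher values without overlap occurred in 20.4% of all genes. The ratio of the Dst means was 1.29, but its log2 difference of 0.08 ± 0.07 (SE) had a limma adjusted p of 0.556, and the addition of 1 FPKM compresses such low values.

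The 95% limma intervals of the 3-month differences were widest for Zbed6, from -0.20 to 0.56, and Lnpep, from -0.31 to 0.32. They were narrowest for Sptan1, from -0.07 to 0.19. Lnpep measured 0.747, 1.49 and 0.940 FPKM in wild type and 0.778, 1.42 and 0.981 in N40K. Zbed6 measured 0.656, 1.38 and 0.829 FPKM in wild type and 0.822, 1.75 and 1.09 in N40K. In both genes replicate 2 was the highest and replicate 1 the lowest library of each genotype. Ank3 was at 21.8 FPKM in both genotypes, with an interval of the log2 difference from -0.15 to 0.15.

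At 12 months 4 of the 10 members were called higher in N40K than in wild type and 0 lower: Zbed6, Syne1, Macf1 and Ank3. Among all genes 11.2% were called higher and 7.71% lower. Of the 7 members chosen by family 3 were called higher and 0 lower, with a median of 0.17. The other 6 members were not called, although their differences were also above 0. The median over the 10 was 0.19, beside 0.01 for all genes. In 6 members all N40K libraries lay above all wild-type libraries, against 21.3% of all genes.

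Zbed6 had the largest genotype difference. It measured 6.78, 5.52 and 8.03 FPKM in wild type and 13.9, 11.8 and 11.9 in N40K. The lowest N40K library thus lay well above the highest wild-type library, and the ratio of the means was 1.85. The log2 difference was 0.81 ± 0.17 (SE), with a limma adjusted p of 0.00870, and it ranked 86 from the top of the 13945 genes. The 12-month values of Zbed6 took part in its choice, so this test and rank are not independent of that choice. Zc3h11a, the zinc finger gene whose transcripts overlap Zbed6, was also higher, at 27.7 ± 3.47 FPKM in wild type and 35.7 ± 1.35 in N40K. Its log2 difference was smaller, at 0.36 ± 0.07 with a limma adjusted p of 0.00658. Within each library the ratio of Zc3h11a to Zbed6 was 4.5, 4.31 and 3.58 in 12-month wild type and 2.68, 2.98 and 2.92 in 12-month N40K, without overlap. Igf2, the known target of Zbed6, varied too widely for a comparison, at 16.3 ± 4.87 and 16.6 ± 14.0 FPKM. It measured 18.2, 10.7 and 19.8 FPKM in wild type, where Ttr, made by the choroid plexus, measured 1282, 1053 and 2152. In N40K Igf2 measured 7.33, 9.82 and 32.8 FPKM, and Ttr 25.2, 223 and 2977. The part of choroid plexus tissue in the Igf2 levels was not tested.

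Syne1, or nesprin-1, measured 30.1, 19.3 and 29.2 FPKM in 12-month wild type and 37.5, 35.5 and 33.3 in N40K. The N40K libraries were all higher, and replicate 2 of the wild type was far below the others. The ratio of means was 1.35 and the log2 difference 0.45 ± 0.13 (SE), with a limma adjusted p of 0.0299. Its relative Syne2, or nesprin-2, measured 1.73, 1.46 and 1.87 FPKM in wild type and 1.68, 1.53 and 2.06 in N40K, with overlapping groups. The log2 difference of Syne2 was 0.04 ± 0.10, and it turned to -0.04 under quantile normalization and to -0.16 once the transcript length trend was removed.

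Macf1 measured 20.6, 16.1 and 21.4 FPKM in 12-month wild type and 24.9, 22.8 and 24.1 in N40K, again without overlap. Its log2 difference was 0.30 ± 0.09 (SE), with a limma adjusted p of 0.0302. Dst, the other plakin, measured 5.67, 5.15 and 6.26 FPKM in wild type and 6.32, 6.10 and 6.99 in N40K, and the groups overlapped. The Dst difference of 0.16 ± 0.07 had a limma adjusted p of 0.130.

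Of the ankyrins, Ank3, which encodes ankyrin-G of the axon initial segment, measured 28.1, 23.4 and 29.1 FPKM in wild type and 33.0, 30.1 and 31.2 in N40K at 12 months. The groups were apart, and the log2 difference was 0.22 ± 0.07 (SE), with a limma adjusted p of 0.0409. Ank2, ankyrin-B of the axon shaft, measured 73.3, 56.9 and 71.1 FPKM in wild type and 77.3, 76.2 and 72.0 in N40K, with overlap and a limma adjusted p of 0.154. Both spectrins separated the genotypes without being called. Sptan1 measured 183.7, 153.3 and 180.9 FPKM in wild type and 191.6, 195.3 and 191.6 in N40K (limma adjusted p 0.0796). Its partner Sptbn1, beta-II spectrin, measured 79.1, 78.5 and 88.1 FPKM in wild type and 92.2, 89.0 and 89.9 in N40K (limma adjusted p 0.150). Lnpep measured 7.25, 8.51 and 9.25 FPKM against 10.7, 8.77 and 9.82, with overlap and a limma adjusted p of 0.336.

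Replicate 2 of the 12-month wild type bears on these differences, being the lowest library of its group for 9 of the 10 members, all but Lnpep. Without it the log2 differences were 0.69 for Zbed6, 0.25 for Syne1, 0.18 for Macf1 and 0.13 for Ank3, and the last was no longer called (limma adjusted p 0.0702). In the same library the 9 tested RNAs known to be kept in the nucleus averaged -0.50 on the log2 scale relative to each gene's mean over the 12 libraries, with 0.17 and 0.10 in the other 12-month wild-type libraries and 0.10 to 0.31 in N40K. Endothelial and mural cell markers were also higher in 12-month N40K, with 4 of 12 (33.3%) called higher and 0 lower, against 11.2% and 7.71% of all genes. All 12 markers were detected in every library. Their average ran from -0.37 to -0.19 in 12-month wild type and from -0.06 to 0.03 in N40K. The part of these levels in the members' differences was not tested. Without an N40K library fewer members were called: 1 without replicate 1 and 1 without replicate 2, which was Zbed6 each time, and 2 without replicate 3, Zbed6 and Syne1. Without wild-type replicate 1 Sptan1 was called as well (limma adjusted p 0.0422), and without any one of the 3-month libraries Ank3 was not called. When only the 12-month groups were fitted, Zbed6 alone was called (limma adjusted p 0.0106). With no filter on low values Syne1 and Ank3 lost their calls, and Ank3 lost its call also under median-ratio scaling or with Xist as a covariate.

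**Figure D2:**
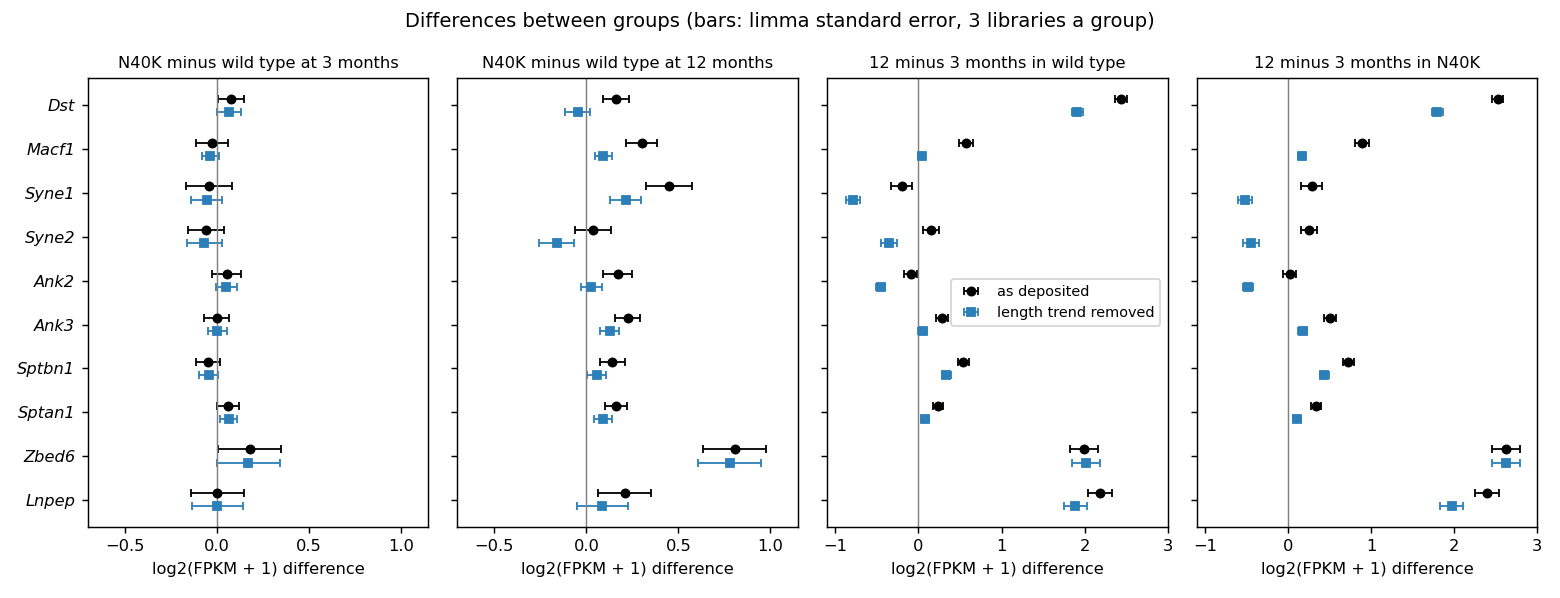
Log2(FPKM + 1) differences of the 10 genes in 4 comparisons, with limma standard errors as bars (3 libraries a group); circles are values as deposited and squares are values after each library's trend against transcript length was removed. At 12 months all circles lie above 0 in N40K minus wild type, and among the squares only that of Zbed6 was called.

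The difference between the genotype effects at the 2 ages was tested as an interaction. None of the 10 members was called with limma, and 9 of 13945 genes (0.0645%) were. The interaction equals the age difference in N40K minus that in wild type. Dst, Zbed6 and Lnpep were chosen for those age differences, so their interactions are a description only. The estimates were above 0 in all 10 members, with a median of 0.20 (0.19 for the 7 chosen by family) beside -0.01 for all genes. In a list of other giant transcripts outside these families, 47 of 49 were also above 0, with a median of 0.175. Of the 153 tested genes with at least 12000 bases, 130 were above 0, with a median of 0.147. With the transcript length trend removed, 7 of the 10 members were above 0, with a median of 0.092. Zbed6 stood at 0.63 ± 0.24 (SE). Of the 7, the largest estimates were those of Syne1 at 0.49 ± 0.18, Macf1 at 0.33 ± 0.12 and Ank3 at 0.22 ± 0.10. Their limma adjusted p ran from 0.254 to 0.327. The interval of the Syne1 interaction ran from 0.10 to 0.88 and that of Sptan1 from -0.08 to 0.29. Without replicate 2 of the 12-month wild type the estimates were 0.51 for Zbed6, 0.29 for Syne1, 0.21 for Macf1 and 0.13 for Ank3. A larger N40K effect at 12 than at 3 months was thus not established for any member.

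Age differences of the 3 genes picked for them were larger than any genotype difference of the members. Dst went from means of 0.232 FPKM in wild type and 0.299 in N40K at 3 months to 5.69 and 6.47 FPKM at 12 months, ratios of 24.5 and 21.6. Lnpep went from 1.06 FPKM in both genotypes to 8.34 and 9.77, ratios of 7.87 and 9.23. Zbed6 went from 0.955 and 1.22 FPKM to 6.78 and 12.5, ratios of 7.10 and 10.3. In these genes the ages did not overlap in either genotype, as in 15.7% of all genes for higher values in wild type and 19.1% in N40K. On the log2(FPKM + 1) scale, which understates change from low levels, the differences were 2.44 and 2.52 for Dst, 2.19 and 2.40 for Lnpep, and 2.0 and 2.62 for Zbed6. Among 13945 genes Dst ranked 4 in both genotypes, Lnpep 7 and 6, and Zbed6 10 and 2. These ranks and the lack of overlap between ages follow from the choice of the 3 genes. Dst and Lnpep passed the filter of 1 FPKM in 3 libraries only because of their 12-month libraries. At 3 months Dst reached 1 FPKM in 0 libraries and Lnpep in 1 library of each genotype.

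Of the 7 members chosen by family, 4 rose from 3 to 12 months in wild type: Macf1, Sptbn1, Ank3 and Sptan1. None was called lower. Over all genes 12.6% were called higher and 29.0% lower, so that the background moved the other way, with a median of -0.08 beside 0.23 for the 7. Median-ratio scaling changed the split over all genes from 1756 higher and 4047 lower to 2594 and 2420. In N40K 5 of the 7 rose, the same 4 and Syne2, against 15.1% called higher and 36.5% lower over all genes. The medians there were 0.34 for the 7 and -0.10 for all genes, and scaling changed the split from 2111 and 5089 to 2995 and 3020. The same 4 and 5 members were called under that scaling, and Syne1 with them in N40K.

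Macf1 rose from 12.6 ± 0.508 to 19.4 ± 2.86 FPKM in wild type, a log2 difference of 0.57 ± 0.09 (SE) with a limma adjusted p of 4.58e-04. In N40K it rose from 12.4 ± 0.406 to 23.9 ± 1.06 FPKM, a log2 difference of 0.89 ± 0.09 with a limma adjusted p of 1.6e-05. Sptbn1 measured 50.9, 58.5 and 59.1 FPKM in 3-month wild type and rose by 0.54 ± 0.07 in wild type and 0.73 ± 0.07 in N40K, with limma adjusted p of 1.42e-04 and 1.2e-05. For both genes every 12-month library was above every 3-month library of its genotype. Sptan1 rose less, by 0.23 ± 0.06 in wild type and 0.34 ± 0.06 in N40K, with limma adjusted p of 0.00969 and 8.44e-04, and the wild-type call was lost when only the wild-type libraries were fitted (0.0518). The spectrin subunits therefore moved by unequal amounts within the libraries. The ratio of Sptan1 to Sptbn1 was 2.62 ± 0.181 and 2.82 ± 0.101 at 3 months, wild type first, and 2.11 ± 0.191 and 2.14 ± 0.0579 at 12 months, without overlap between the ages of a genotype.

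The ankyrins moved apart in the same way. Ank3 rose by 0.28 ± 0.07 in wild type and 0.51 ± 0.07 in N40K, with limma adjusted p of 0.00683 and 1.44e-04. Ank2 differed by -0.10 ± 0.08 and 0.02 ± 0.08 and was not called, and the wild-type value turned to 0.01 under quantile normalization. The ratio of Ank2 to Ank3 was 3.27 ± 0.108 in wild type and 3.40 ± 0.0964 in N40K at 3 months, against 2.50 ± 0.0990 and 2.39 ± 0.124 at 12 months, again with no overlap between ages. Of the nesprins, Syne1 differed by -0.20 ± 0.13 in wild type and 0.28 ± 0.13 in N40K and was called in neither, with limma adjusted p of 0.214 and 0.0778. Syne1 was called higher with age in N40K when only the N40K libraries were fitted, without replicate 2 of the 12-month wild type, and after rescaling between libraries or removal of the GC trend. Syne2 rose by 0.25 ± 0.10 in N40K, just inside the threshold with a limma adjusted p of 0.0498, and that call was lost with a pseudocount of 0.1, with no filter, with Xist as a covariate and without any one of 9 of the 12 libraries (all but 12-month replicate 2 of either genotype and 3-month wild-type replicate 3).

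**Figure D3:**
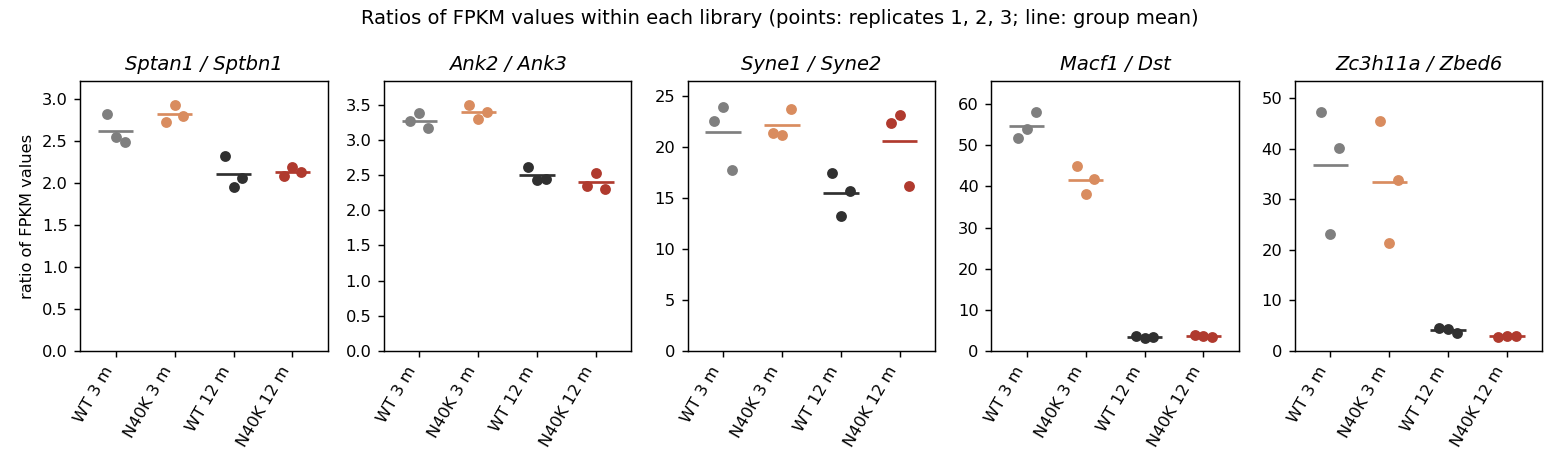
Ratio of FPKM values of gene pairs within each library, by group; points are replicates 1, 2 and 3 and lines are group means, on axes that start at 0. The Sptan1 to Sptbn1 and Ank2 to Ank3 ratios are lower at 12 months in both genotypes, and the Macf1 to Dst ratio goes from means of 54.6 and 41.6 to 3.39 and 3.71.

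**Figure D4:**
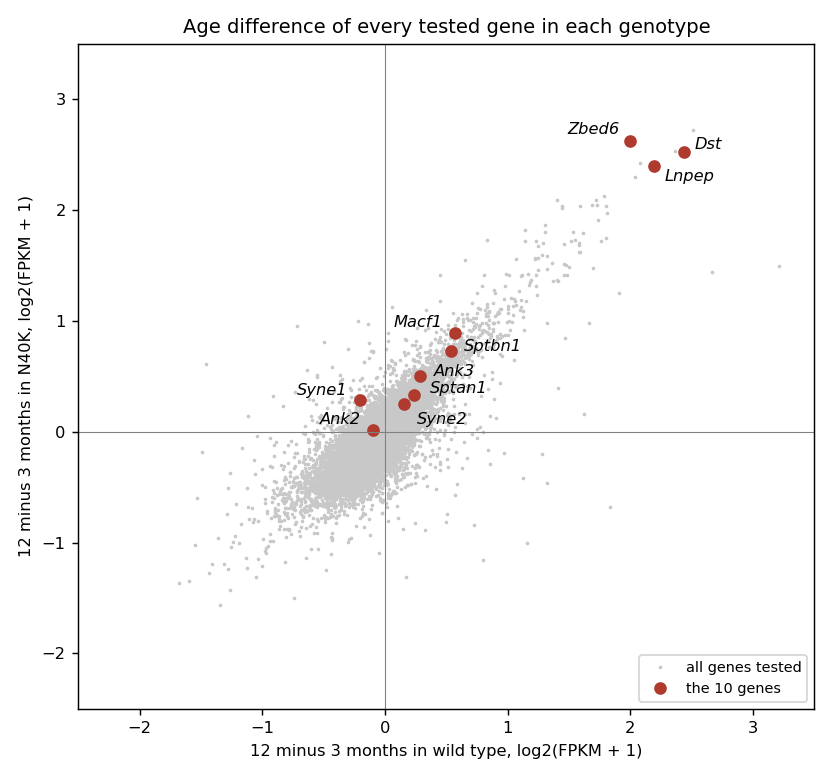
Log2(FPKM + 1) difference between 12 and 3 months in wild type (x axis) and in N40K (y axis) for all 13945 genes tested (grey) and the 10 members (red). Dst, Zbed6 and Lnpep, chosen for their rise with age, sit at the upper right, and Ank2 sits near the origin.

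Transcript length went with the age and genotype differences across all genes. With the 13753 genes of known length in 6 bins, the median difference between 12 and 3 months in wild type went from -0.16 for 3129 genes under 2000 bases to 0.37 for the 153 genes of at least 12000 bases. In N40K it went from -0.25 to 0.53 over the same bins. The 12-month genotype difference went from -0.04 to 0.19, while the 3-month one was 0.05 and 0.03 at the ends. Of the 153 longest, 62.7% were called higher with age in wild type and 29.4% higher in 12-month N40K. The 153 averaged between -0.35 and -0.24 in the 3-month libraries and between 0.06 and 0.40 in the 12-month libraries, relative to each gene's mean, with the lowest 12-month value in wild-type replicate 2. The part of tissue and the part of library series in the age trend cannot be told apart.

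The members were therefore also compared after removal of each library's smooth trend against transcript length. In the 12-month genotype comparison Zbed6 alone was then called, at 0.78 with a limma adjusted p of 0.0102. Macf1 went to 0.09, Syne1 to 0.21 and Ank3 to 0.13, with limma adjusted p of 0.173, 0.0986 and 0.107, and Dst turned to -0.05. In the age comparison of wild type 2308 of all genes were then called higher and 2374 lower. Only Sptbn1 remained higher among the 7, at 0.34 with a limma adjusted p of 7.41e-04. Macf1 (0.04), Ank3 (0.05) and Sptan1 (0.08) were no longer called. Syne1 (-0.79), Ank2 (-0.46) and Syne2 (-0.35) were then called lower, with limma adjusted p of 8.5e-05, 2.88e-04 and 0.0164.

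In N40K the same removal left Sptbn1 (0.44), Ank3 (0.17) and Macf1 (0.16) called higher and put Syne1 (-0.52), Ank2 (-0.48) and Syne2 (-0.44) among the genes called lower. Over all genes 2438 were called higher and 2420 lower there. Relative to this smooth trend, then, the nesprins and Ank2 were called lower at 12 months, while as deposited none of them was called lower. The differences of the 3 genes chosen for age were 1.91 and 1.80 for Dst, 1.89 and 1.97 for Lnpep, and 2.01 and 2.62 for Zbed6 after the removal, wild type first. Members at the far end of the length range rest on few genes of like length.

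**Figure D5:**
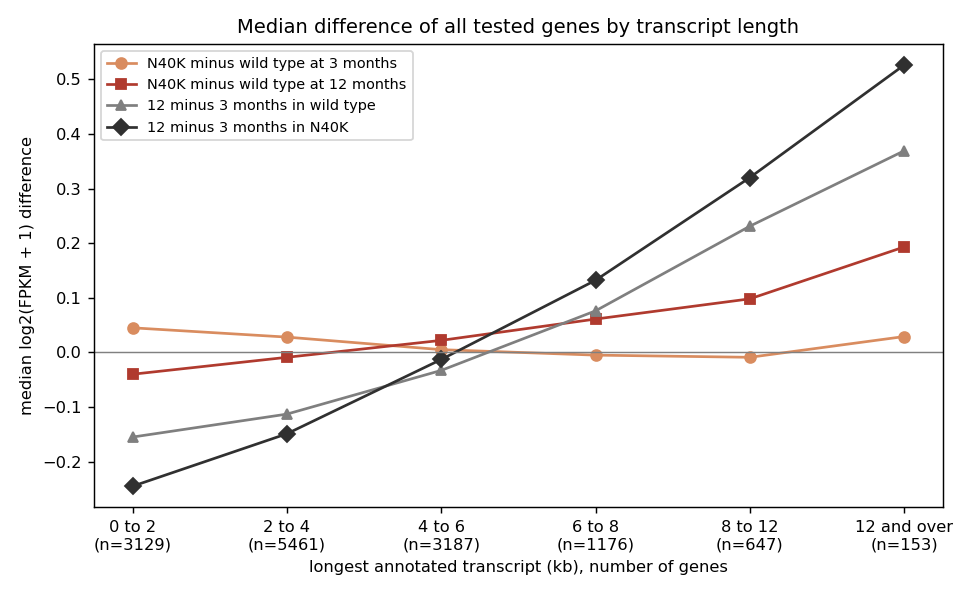
Median log2(FPKM + 1) difference of all tested genes in 6 bins of longest annotated transcript, for 4 comparisons; n is the number of genes in a bin. The age medians climb from below 0 in the shortest bin to 0.37 and 0.53 in the longest, the 12-month genotype median reaches 0.19, and the 3-month genotype median stays near 0.

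Other giant transcripts outside these families, a list of 49 tested genes, were counted for comparison. With age 38 (77.6%) were called higher and 1 lower in wild type, with a median of 0.43, against 12.6% higher and 29.0% lower over all genes. In N40K 44 (89.8%) were called higher and 0 lower, with a median of 0.60, against 15.1% and 36.5%. In 12-month N40K 14 (28.6%) were called higher and 0 lower than in wild type, with a median of 0.21, against 11.2% and 7.71%.

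Partners of each family were counted next. Among the plakins 5 of 7 measured genes were tested. Ppl, which encodes periplakin, was called higher in 12-month N40K, at 0.936 ± 0.202 FPKM in wild type and 1.44 ± 0.0737 in N40K, a log2 difference of 0.34 ± 0.09 with a limma adjusted p of 0.0256. Plec, or plectin, differed by 0.05 ± 0.12 and Dsp, or desmoplakin, by 0.25 ± 0.21 in that comparison, and neither was called. In the set of microtubule partners of the plakins, 0 of 13 were called higher and 1 (7.69%) lower in 12-month N40K. Over all genes 11.2% were called higher and 7.71% lower, so the lower share was near that background. The gene called lower was Mapre2, a microtubule plus-end binding protein, at 53.8 ± 1.10 FPKM in wild type and 46.8 ± 0.890 in N40K (limma adjusted p 0.0130). With age 5 of the 13 (38.5%) rose and 2 (15.4%) fell in wild type, beside 12.6% and 29.0% of all genes. Among them Clasp2, another plus-end protein, rose by 0.21 ± 0.04 and Dctn1, a dynactin subunit, fell by 0.17 ± 0.05 (limma adjusted p 0.00119 and 0.0283).

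Of the 16 tested spectrin skeleton genes, the members included, 0 were called higher and 2 (12.5%) lower in 12-month N40K, against 11.2% and 7.71% of all genes. Epb4.1l3, a band 4.1 protein that ties spectrin to actin and membrane proteins, was lower in N40K at both ages. It measured 40.6 ± 1.36 FPKM in wild type and 32.2 ± 2.11 in N40K at 3 months (limma adjusted p 0.00228), and 39.8 ± 1.54 and 34.8 ± 0.301 at 12 months (limma adjusted p 0.0242). Add1, alpha-adducin, which caps actin at spectrin junctions, was lower at 12 months by 0.12 ± 0.03 (limma adjusted p 0.0230). With age 6 of the 16 (37.5%) rose and 2 fell in wild type, and 6 rose and 3 fell in N40K, beside 12.6% and 15.1% of all genes called higher.

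Nesprins bind SUN proteins, which in turn bind the lamina. Of 12 tested genes of the nesprin and SUN complex and the nuclear lamina, the members included, 8 fell and 0 rose with age in wild type, and 6 fell and 1 rose in N40K. Over all genes 29.0% and 36.5% were called lower in these comparisons, and in wild type that count went from 4047 to 2420 under median-ratio scaling. In 12-month N40K 5 of the 12 were called higher than in wild type, against 11.2% of all genes, and 0 lower. They were Syne1, Sun1, Lmna, Syne4 and Fhod1. The 12 averaged -0.33 in replicate 2 of the 12-month wild type, -0.16 in both other libraries of that group and -0.03 in each 12-month N40K library. Syne4 measured 2.78, 1.05 and 2.35 FPKM in 12-month wild type, and Fhod1, a formin that binds nesprin-2, measured 2.10, 1.17 and 2.13. Without replicate 2 the difference of Fhod1 went from 0.44 to 0.27 and that of Lmna from 0.18 to 0.16, and neither was called. That of Syne4 went from 0.66 to 0.39 and was still called. Sun1, an inner nuclear membrane partner of nesprins, was at 18.5 ± 1.51 FPKM in wild type and 23.96 ± 0.874 in N40K, a log2 difference of 0.36 ± 0.06 with a limma adjusted p of 0.00163. Lmna, which encodes lamins A and C, fell with age by 0.53 ± 0.05 in wild type and 0.55 ± 0.05 in N40K. It was higher in N40K at both ages, by 0.20 ± 0.05 and 0.18 ± 0.05 (limma adjusted p 0.0342 and 0.0368). Syne4, nesprin-4, was at 3.81 ± 0.422 FPKM in wild type and 6.46 ± 0.348 in N40K at 3 months, called as deposited (limma adjusted p 0.0396) but lost under scaling, the replicate block or Xist as a covariate.

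Ankyrins anchor channels and adhesion proteins. Of 20 tested genes of this kind, the members included, 0 were called higher and 4 (20.0%) lower in 3-month N40K. At 12 months 1 was called higher and 4 (20.0%) lower. Over all genes 7.95% were called higher and 3.49% lower at 3 months, and 11.2% and 7.71% at 12 months. The single higher gene was Ank3 itself. Scn1a, a sodium channel of the axon initial segment, measured 9.99 ± 0.704 FPKM in wild type and 7.0 ± 0.224 in N40K at 3 months, a log2 difference of -0.46 ± 0.05 with a limma adjusted p of 2.86e-04. At 12 months it measured 13.7 ± 0.396 and 10.5 ± 0.180 FPKM, with a limma adjusted p of 0.00117. Ank1, the third ankyrin, and Cntnap1, a paranodal adhesion protein, were also called lower in N40K at both ages. Their 3-month differences were -0.41 ± 0.08 and -0.42 ± 0.08, and their 12-month differences -0.27 ± 0.08 and -0.38 ± 0.08. Bin1, a membrane-bending amphiphysin protein, was lower at 12 months by -0.17 ± 0.06, just inside the threshold with a limma adjusted p of 0.0493, and that call was lost with the replicate block. Itpr1, the inositol trisphosphate receptor that binds ankyrin-B, was lower at 3 months, by -0.23 ± 0.05 (limma adjusted p 0.0185), and at 12 months measured 59.5 ± 2.58 and 61.6 ± 3.07 FPKM.

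Of 16 tested genes of the Lnpep vesicle and the M1 peptidase family, Lnpep included, 0 were called higher and 3 (18.8%) lower in 12-month N40K. Over all genes these shares were 11.2% and 7.71%. The 3 were the aminopeptidases Rnpep (-0.15 ± 0.04, limma adjusted p 0.0147) and Lta4h (-0.13 ± 0.04, 0.0452), and Rab10 (-0.14 ± 0.04, 0.0468), a Rab protein of Glut4 vesicles. The calls of Lta4h and Rab10 were lost with the replicate number as a block. With age 3 rose and 3 fell in wild type, 18.8% each way against 12.6% higher and 29.0% lower over all genes. The 3 that rose included Lnpep, which was chosen for its rise, so the higher share follows in part from that choice. Sort1, or sortilin, a vesicle cargo receptor, rose from 73.7 ± 2.56 to 92.7 ± 1.67 FPKM, a log2 difference of 0.33 ± 0.04 with a limma adjusted p of 1.29e-04. Of the 5 genes of the Zbed6 locus and family, Zbed6 and Zc3h11a were the 2 called higher in 12-month N40K, against 11.2% of all genes. The 12-month values of Zbed6 took part in its choice, and its exon overlaps Zc3h11a transcripts, so these 2 calls may not be independent. Zc3h11a was higher in every N40K library at 3 months too, at 32.1 ± 1.20 FPKM in wild type and 37.15 ± 0.377 in N40K. It was not called at that age (limma adjusted p 0.0951). Zc3h11a fell with age in wild type, by 0.21 ± 0.07 (limma adjusted p 0.0354). The ratio of Zc3h11a to Zbed6 went from 36.8 ± 12.4 at 3 months to 4.13 ± 0.487 at 12 months, while Zbed6, chosen for its rise, went from 0.955 to 6.78 FPKM.

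The genes whose profile over the 12 libraries was most like each member's were found by the root-mean-square difference between log2(FPKM + 1) values, each gene centred on its own mean. Dst, Lnpep and Zbed6 were chosen for the rise with age that makes up most of their profiles, so their closeness to each other and to other genes with a large rise follows from that choice. For Dst they were the NMDA receptor subunit genes Grin2a (0.11) and Grin2b (0.14), then Lnpep (0.19). Grin2b went from 0.439 ± 0.0440 to 7.31 ± 1.69 FPKM with age in wild type. For Lnpep they included Slc1a2 (0.08), the main glial glutamate transporter gene, and Grin2a (0.15). For Zbed6 they included Dgkh (0.19), a diacylglycerol kinase gene, and Grin2a (0.24). These genes have long noncoding parts, 19614 bases in Grin2b, 10242 in Grin2a, 11717 in Dgkh and 9879 in Slc1a2, whereas Dst itself has 1061.

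For Macf1 the nearest genes were Herc2 (0.05), Mycbp2 (0.05) and Birc6 (0.06), each a ubiquitin ligase gene with a longest transcript of 15261, 15233 and 15768 bases. For Ank3 they were Nsd1, Map3k13 and Tanc2, each at 0.04, and for Sptbn1 they were Gria2 (0.05), an AMPA receptor subunit gene, Lphn3 (0.05) and Nav3 (0.06). Sptan1 was nearest to Atg2b (0.03), Chd8 (0.04) and Polr3a (0.04). Syne1 was nearest to Sfrs18 (0.06), Odf2 (0.09) and Arntl2 (0.09), whose longest transcripts of 4545, 4291 and 2999 bases are far shorter than its own. Ank2 was nearest to Gon4l (0.03), Tars2 (0.04) and Tmem181a (0.04), and Syne2 to Nup153 (0.05), Hyal1 (0.05) and Slc23a2 (0.06). Among the members themselves the closest pair was Ank3 and Sptan1, at 0.08, followed by Macf1 and Sptbn1, at 0.11.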

How the data were processed

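Hippocampal poly-A RNA was made into TruSeq libraries and sequenced with paired 100 bp chemistry on Illumina instruments, per the labels' protocols. The authors deposited 1 table of FPKM values for 12 libraries. Per the submitters' processing notes, mm9, STAR, BWA and CASAVA were used, with no versions or roles given. The counting tool, annotation and strand setting are not given in the sources used here. All 12 columns were matched to libraries by name. Of the entries 22883 (97.99%) matched GENCODE M21, used only for names, lengths, GC content and overlaps because its build differs, and 128 entries had joined names.

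Genes that reached 1 FPKM in 3 or more libraries were tested as log2(FPKM + 1) with limma 3.58.1 (R 4.3.3), without further scaling. The fit had 4 group means, 5 contrasts, eBayes with a trend, two-sided tests and Benjamini-Hochberg adjustment over all 13945 genes. All 10 members passed the filter, and Dst, Zbed6 and Lnpep had 1 FPKM or more in 6, 9 and 8 libraries. The members and gene lists were chosen with earlier results of these data known. Named were every member, list genes with the smallest p in a genotype comparison (up to 4 per list) or where 5 or fewer were called, and the 3 nearest genes of each member, of which 1 gene is not reported here. Alternatives tried were quantile normalization, median-ratio scaling, pseudocounts of 0.5 and 0.1, a filter at a mean of 5 FPKM and none, subtraction, per library, of a lowess curve (span 0.3) on transcript length or on GC content, Xist as a covariate, the replicate number as a block, only the groups compared, and each library left out. Low FPKM values of genes with 1 coding length gave whole reads for only 51.5% to 64.9% of values within 0.02 of a read, so depths are rough and counts were not tested. At most 0.0159% of values were identical between libraries. The script was tested on simulated data.

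Same-numbered libraries of wild type at 3 and 12 months deviated together, with correlations of 0.246 to 0.343, and those of the genotypes within an age did not in every pair (-0.456 to 0.057 at 3 months and 0.001 to 0.197 at 12 months). Those of N40K at 3 and 12 months gave -0.406 to 0.03, those of 3-month wild type and 12-month N40K 0.254 to 0.723, and those of 3-month N40K and 12-month wild type -0.243 to -0.047. Pairs of unlike number in different groups ran from -0.604 (3-month wild-type replicate 3 with 12-month N40K replicate 1) to 0.487 (3-month N40K replicate 2 with 12-month N40K replicate 3). Correlations above 0.343 thus also arose without a shared number. The numbers come from the titles, which do not say what they share.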

Additional observations from a re-analysis of the deposited data

How the results depend on the processing

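Alternatives left most results on their side of the threshold. In 12-month N40K against wild type the 4 members called higher (and in either direction) became 2 with no filter, 1 with the length trend removed and 1 with only the 2 groups fitted, where calls over all genes went from 1557 higher and 1075 lower to 1499 in all. Calls over all genes in that comparison were 1653 higher and 1007 lower with no filter, and 1464 and 1205 with the length trend removed. Removal of the length trend also left 1 member higher and 3 lower with age in wild type, beside 2308 and 2374 of all genes. In N40K it left 3 higher and 3 lower, beside 2438 and 2420. It reversed age values of Syne2 in wild type (-0.351) and of Syne1 (-0.522), Syne2 (-0.444) and Ank2 (-0.483) in N40K, 12-month genotype values of Dst (-0.048), Syne2 (-0.162), Plec (-0.106) and Itpr1 (-0.047), and interactions of Dst (-0.114), Syne2 (-0.094) and Ank2 (-0.026). At 3 months the uncalled Ank3 value turned to -0.033 with median-ratio scaling, -0.011 with quantile normalization and -0.010 with the GC trend removed, and Lnpep to -0.013 and -0.050 with the former 2. Quantile normalization turned 12-month Syne2 to -0.040, 12-month Sort1 to 0.022 and the wild-type age value of Ank2 to 0.007, and a pseudocount of 0.1 turned the Dst interaction to -0.082. The cause was not tested.

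With the replicate number as a block no member call changed in any comparison. The pairing block took the 9 interaction calls over all genes to 0 (Xist as a covariate also to 0) and moved calls of Sptbn4, Syne4, Trhde, Bin1, Lta4h and Rab10 between genotypes across the threshold. With each library left out in turn, calls over all genes ran from 797 to 2226 at 3 months (lowest without wild-type replicate 2), from 1356 to 2607 at 12 months (lowest without N40K replicate 1) and from 0 to 162 for the interaction (highest without 3-month N40K replicate 1). Members called, and called higher, in 12-month N40K ran from 1 to 5. Genotype values that changed sign at 3 months were Syne2 (-0.111 to 0.027), Ank3 (-0.012 to 0.014), Lnpep (-0.118 to 0.150) and Igf2 (-0.820 to 0.174). At 12 months they were Syne2 (-0.040 to 0.095), Plec (-0.127 to 0.168), Dctn1 (-0.007 to 0.075) and Igf2 (-0.819 to 0.191), and with age in wild type Ank2 (-0.162 to 0.019). The 2-group fits give no interaction. Genes under a mean of 5 FPKM drop out of that filter, so Dst, Syne2 and others at such levels have no value there. Precision is limited by 3 libraries a group, and for Dst, Zbed6 and Lnpep at 3 months by levels near 1 FPKM or below.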

Other observations

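Cytosolic ribosomal protein genes, as deposited, were more often called lower than higher with age. Over all genes 29.0% were called lower and 12.6% higher with age in wild type, and 36.5% and 15.1% in N40K. After median-ratio scaling the counts over all genes were 2420 lower and 2594 higher in wild type, and 3020 and 2995 in N40K. The ribosomal protein genes were not counted under that scaling. Of 76 cytosolic ribosomal protein genes, 36 fell and 3 rose with age in wild type, and 65 fell and 1 rose in N40K (limma), with medians of -0.18 and -0.33. In 12-month N40K 11 were lower and 1 higher than in wild type, with a median of -0.12. Their average per library was 0.06 in 12-month wild-type replicate 2, against -0.15 and -0.09 in the other wild-type libraries of that age.

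Markers of other cells were counted beside the members and are read against the same shares over all genes. Of 12 oligodendrocyte markers 6 fell and 0 rose with age in wild type and 5 (41.7%) fell and 0 rose in N40K, the latter near the share over all genes. Of 12 endothelial and mural markers 9 fell and 1 rose in wild type and 3 fell and 2 rose in N40K. Astrocyte markers had 2 of 12 called in each direction in wild type, and microglia markers had 1 higher and 3 (25.0%) lower, near the share over all genes. Ttr, made by the choroid plexus, ran from 25.2 to 5813 FPKM between libraries. Of 11 muscle, skin and other tissue genes, chosen because linker genes are also used there, only 5 were tested, and 2 of the 5 fell with age in each genotype, a count too small to set against the share over all genes.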
